A study of Mus musculus with 37 samples.

Results

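This account covers 33 genes of fatty acid synthesis and its supply, out of 55536 genes counted in each tissue. The rule that picks them names genes by biochemical role and uses no measured value, but it was drawn up with earlier results of these data known. Of the 33 members, 6 make or move acetyl-CoA and malonyl-CoA, 1 is the palmitate synthase, 7 are desaturases, 8 serve chain elongation, 5 make NADPH or belong to the pentose phosphate pathway, 1 is a glycolytic enzyme and 5 are regulators. Glycolysis itself is thus represented by Pklr alone. RNA was measured in liver and brain cortex of 10-month-old mice. The genotypes were TMEM106B-/-TDP-43Q331K, called the combined genotype here (4 livers, 5 cortices), TMEM106B-/- (4 livers, 5 cortices), TDP-43Q331K (4 livers, 6 cortices) and WT (4 livers, 5 cortices). TDP-43Q331K is a knock-in of an amino acid change in the RNA-binding protein TDP-43, and TMEM106B is a lysosomal membrane protein. The labels do not say how the TMEM106B allele was made, nor give sex, strain background or diet. Nor do they tie libraries to animals, and the p-values therefore cover the spread among libraries only, which may be technical. The study asked which transcripts follow each genotype, and its title names lipid metabolism and obesity.

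In the liver, citrate leaves the mitochondrion through Slc25a1 and is split by Acly into acetyl-CoA, while Acss2 makes acetyl-CoA from acetate. Acaca and Acacb carboxylate acetyl-CoA to malonyl-CoA, Fasn condenses these units into palmitate with NADPH from Me1, G6pdx and Pgd, and elongases and desaturases then lengthen and unsaturate the chain. Insulin acting through the transcription factor SREBP-1c (gene Srebf1), glucose through ChREBP (gene Mlxipl) and sterols through LXR-alpha (gene Nr1h3) are known to drive these genes. In the brain the same enzymes serve membrane and myelin lipids.

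Levels are counts per 1 M of effective library size (CPM), log2 fold changes are from edgeR's quasi-likelihood test and carry standard errors (SE), errors on CPM are standard deviations (SD), and "called" means an adjusted p under 0.05 over all genes of the tissue. The test covered 16710 liver genes and 21248 cortex genes. It covered 30 of the 33 members in liver and 32 in cortex. In liver Scd3 had 2 counts in all 16 libraries together, Elovl4 had 5 and Scd4 had 27, and in cortex Pklr had 22 counts in 21 libraries. The libraries held 50.5 to 74.1 M counts in liver and 28.8 to 46.3 M in cortex.

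The RNA of the targeted gene was not lower in the libraries labelled TMEM106B-/-. Tmem106b averaged 135.1 ± 9.15 CPM in combined livers, 115.3 ± 9.32 in TMEM106B-/- livers, 91.9 ± 21.3 in TDP-43Q331K livers and 96.5 ± 16.3 in WT livers (SD, n = 4 each), and 184 ± 6.66 CPM in TMEM106B-/- cortices and 188 ± 4.69 CPM in WT cortices (SD, n = 5 each). The counts do not show whether protein was made. A set of 8 hepatocyte markers summed to 104479 to 131156 CPM in combined livers and 113531 to 139011 CPM in WT livers, and a set of 8 neuron markers summed to 6001 to 7297 CPM over the cortices, so each tissue carried its own markers. Summed transcripts of 9 acute phase genes were high in 1 combined liver (20746 CPM, replicate 1), 1 TMEM106B-/- liver (21269 CPM, replicate 4) and 1 WT liver (23616 CPM, replicate 2). Results that depend on such libraries are given with and without them. Leaving them out did not level this sum between WT and the other genotypes, as given with the liver markers below. In bulk tissue, fewer cells of a type and less RNA per cell cannot be told apart.

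The upstream sequences of a few members are shown because many members rose together in liver, as described next. RefSeq promoters of GRCm38.p6 were held for 30 of the 33 members, and Scd1, Scd2 and Fads1 had none. The stretches below end at the base before the annotated gene start, and capitals mark matches to the E-box CACGTG, a site bound by ChREBP, SREBP and other basic helix-loop-helix factors, and to the NF-Y box CCAAT, which reads ATTGG on the other strand. Elovl5 is on GRCm38 chr9:77917115-77917363 (plus strand), Slc25a1 on chr16:17928220-17928469 (minus strand) and Fasn on chr11:120824548-120824797 (minus strand).
Elovl5: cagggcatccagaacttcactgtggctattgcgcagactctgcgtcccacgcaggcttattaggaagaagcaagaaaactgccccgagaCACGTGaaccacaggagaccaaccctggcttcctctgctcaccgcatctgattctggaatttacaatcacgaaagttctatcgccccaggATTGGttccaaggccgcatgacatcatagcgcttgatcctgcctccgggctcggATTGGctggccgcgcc
Slc25a1: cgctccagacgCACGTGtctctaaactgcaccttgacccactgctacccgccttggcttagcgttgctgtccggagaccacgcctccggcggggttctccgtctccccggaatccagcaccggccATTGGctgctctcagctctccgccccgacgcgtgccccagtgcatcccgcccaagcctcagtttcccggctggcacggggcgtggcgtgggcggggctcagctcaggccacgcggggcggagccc
Fasn: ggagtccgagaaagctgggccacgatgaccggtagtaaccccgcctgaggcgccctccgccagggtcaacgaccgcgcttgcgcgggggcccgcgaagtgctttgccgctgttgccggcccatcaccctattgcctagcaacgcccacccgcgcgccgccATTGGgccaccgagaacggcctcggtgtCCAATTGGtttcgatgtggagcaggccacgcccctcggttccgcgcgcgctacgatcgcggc
The E-box of Elovl5 began 160 bases before the gene start and that of Slc25a1 239 bases before it. Fasn had NF-Y boxes beginning 90, 62 and 59 bases before its start, of which the last 2 overlap in the palindrome CCAATTGG. In windows from 250 bases before to 50 after the start, on both strands, the NF-Y box was in 18 of 30 members (60.0%), against 41.1% of 27025 genes. The E-box was in 4 of 30 members (13.3%; Elovl4, Elovl5, Mlxipl and Slc25a1), against 8.09% of genes. A sterol response element-like motif, TCACNCCAC, was in 1 of 30 members (3.33%; Mlxipl), against 1.44% of genes. These matches describe letters only and are no evidence of binding.

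In livers of the combined genotype, genes of carbon supply, desaturation, elongation and NADPH supply were higher than in WT, while the synthase Fasn was not called. Of 30 tested members 17 rose and none fell, where 4.19% of all genes tested rose and 2.85% fell. The median log2 fold change of the members was 0.72, with a range from -0.77 to 2.42, and that of all genes was -0.029. The members that rose were 5 of the 6 acetyl-CoA and malonyl-CoA genes, all 5 NADPH and pentose phosphate genes, 3 of 5 tested desaturases and 4 of 7 tested elongation genes. None of the 5 regulators was called, and neither was Fasn or Pklr. In 18 of the 30 every combined liver lay above every WT liver, where 8.08% of all genes did so. The same held for 13 members in TMEM106B-/- livers, where 3.52% of all genes did so, and for 9 in TDP-43Q331K livers, where 4.09% did. Wholly below WT lay 1 of 30, Mid1ip1, in combined livers, where 6.48% of all genes did so. That number was 0 in TMEM106B-/- livers (3.67% of all genes) and 0 in TDP-43Q331K livers (4.54%). At an unadjusted p under 0.05 there were 20 members higher and 1 lower. That threshold was reached by 3777 of all 16710 genes tested, in either direction. DESeq2 called 18 members higher and 1, Mid1ip1, lower. The share of all genes called by DESeq2 is not given here or below.

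**Figure D1:**
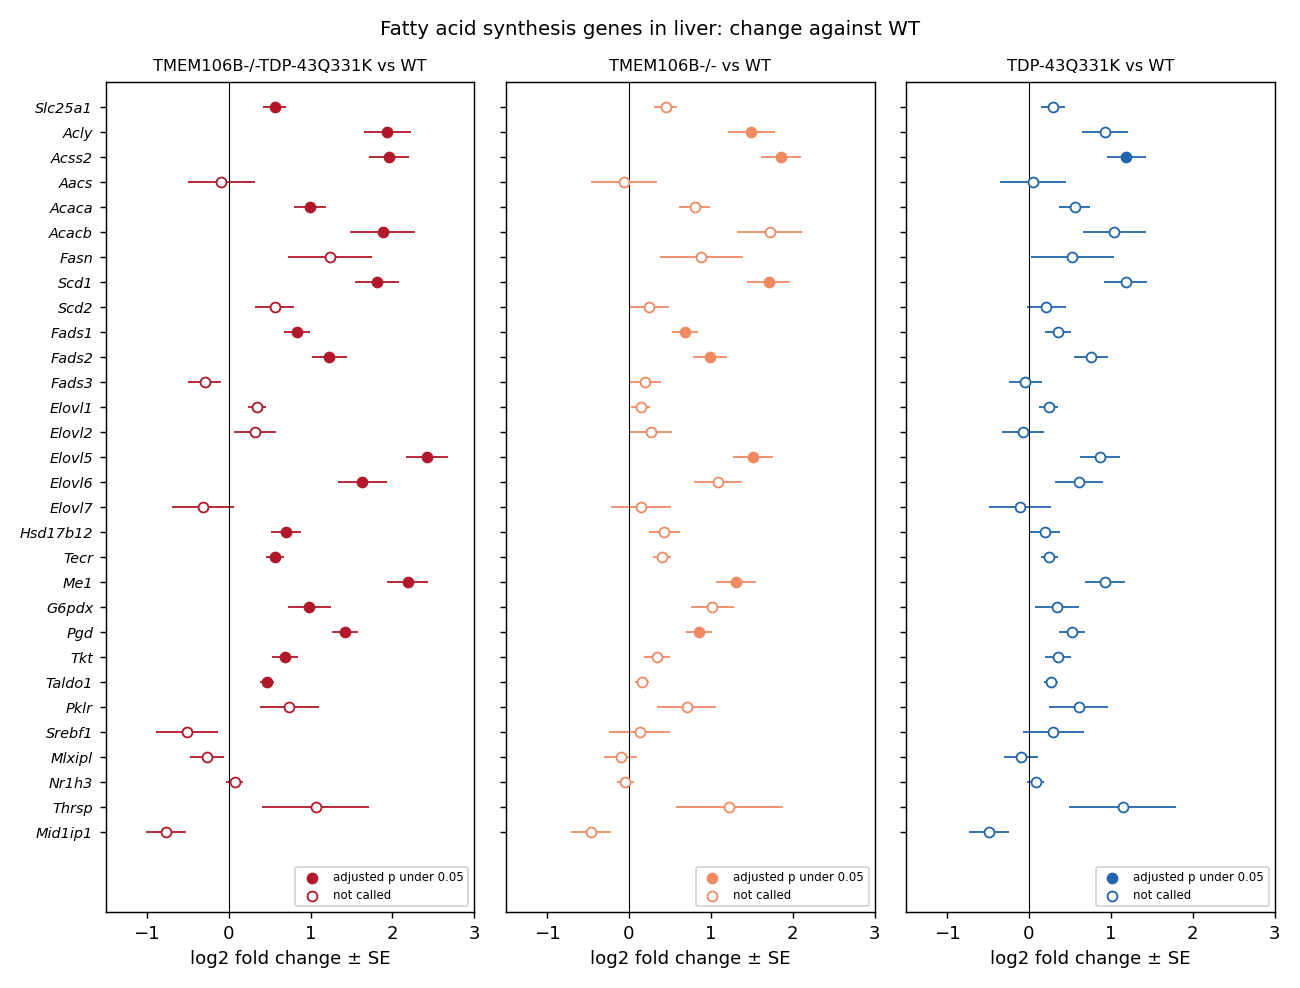
Log2 fold changes (x axis, ± SE) of the 30 tested members in liver for the combined genotype, TMEM106B-/- and TDP-43Q331K against WT, with filled points for genes called by edgeR. In the combined genotype 17 points are filled, against 8 in TMEM106B-/- and 1 in TDP-43Q331K, and the regulators at the bottom are open in every panel; the 3 comparisons share the same WT livers.

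Supply of carbon came first in the pathway. Acly, ATP citrate lyase, was at 329, 743, 504 and 264 CPM in combined livers, at 356, 298, 419 and 283 CPM in TMEM106B-/- livers, at 247, 266, 178 and 225 CPM in TDP-43Q331K livers and at 159, 76.7, 131 and 113 CPM in WT livers. Every non-WT liver lay above every WT liver, and the combined replicate 2 was the highest of all. The log2 fold change was 1.94 ± 0.29 in the combined genotype (adjusted p = 0.00086) and 1.497 ± 0.28 in TMEM106B-/- (adjusted p = 0.019). Acss2, acetyl-CoA synthetase, was at 376, 567, 439 and 290.2 CPM in combined livers, at 298, 560.1, 430.1 and 269 CPM in TMEM106B-/- livers, at 284, 264, 194 and 234 CPM in TDP-43Q331K livers and at 126, 81.8, 126 and 95.2 CPM in WT livers. The lowest non-WT liver was thus above the highest WT liver. Acss2 was the only member called in all 3 comparisons with WT, at 1.96 ± 0.24 in the combined genotype (adjusted p = 0.00018), 1.86 ± 0.24 in TMEM106B-/- (adjusted p = 0.0013) and 1.18 ± 0.24 in TDP-43Q331K (adjusted p = 0.049).

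The citrate carrier Slc25a1 averaged 278 ± 34.7 CPM in combined livers and 189 ± 29.2 CPM in WT livers (0.56 ± 0.15, adjusted p = 0.027). The cytosolic acetyl-CoA carboxylase Acaca averaged 166 ± 54.5 CPM in combined livers and 83.2 ± 11.6 CPM in WT livers (0.99 ± 0.19, adjusted p = 0.0047). Its mitochondrial-membrane relative Acacb, whose malonyl-CoA restrains fatty acid entry into mitochondria, averaged 202 ± 50.8 CPM in combined livers and 54.9 ± 37.5 CPM in WT livers (1.88 ± 0.40, adjusted p = 0.012). All 3 groups of combined values lay wholly above the WT values. Aacs, which activates acetoacetate, was the exception in its class, with group means from 149.6 to 164 CPM over the 4 genotypes. Acaca shares 52.6% of its 50-base stretches with the gene Gm5182, which averaged 9.88 counts a liver where Acaca averaged 8083.

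Fasn, the synthase itself, is given by library because its absence among the called genes was noticed after its values were seen. It was at 1103, 2687, 1887 and 835 CPM in combined livers, at 1822, 637, 1928 and 705 CPM in TMEM106B-/- livers, at 564, 1259, 814 and 1344 CPM in TDP-43Q331K livers and at 499, 272, 1148 and 839 CPM in WT livers. The groups overlapped, and the livers spread widely within every genotype. The log2 fold change against WT was 1.24 ± 0.51 in the combined genotype (adjusted p = 0.16), 0.88 ± 0.51 in TMEM106B-/- (adjusted p = 0.44) and 0.53 ± 0.51 in TDP-43Q331K (adjusted p = 0.67), none of them called.

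Desaturation was led by Scd1, the stearoyl-CoA desaturase of liver, which makes oleate and palmitoleate. Scd1 was at 8704, 13104, 14592 and 8755 CPM in combined livers, at 7605, 11230.5, 11437 and 11690.4 CPM in TMEM106B-/- livers, at 10141, 8695, 4316 and 6003 CPM in TDP-43Q331K livers and at 4595, 2858, 2675 and 2731 CPM in WT livers. All combined and TMEM106B-/- livers lay above all WT livers, and the WT replicate 1 overlapped with the lowest TDP-43Q331K liver. The change was 1.81 ± 0.27 in the combined genotype (adjusted p = 0.00070), 1.71 ± 0.27 in TMEM106B-/- (adjusted p = 0.0052) and 1.18 ± 0.26 in TDP-43Q331K (adjusted p = 0.066, not called). The paralog Scd2 was at 4.53, 7.03, 5.15 and 3.07 CPM in combined livers, at 3.53, 2.91, 4.59 and 4.84 CPM in TMEM106B-/- livers, at 3.89, 4.58, 2.80 and 4.21 CPM in TDP-43Q331K livers and at 4.13, 3.15, 3.50 and 2.62 CPM in WT livers, and these groups overlapped (0.56 ± 0.24 for the combined genotype against WT, adjusted p = 0.17). In liver, Scd3 never exceeded 1 count and Scd4 never exceeded 6 counts in a library. The Scd paralogs share 4.01 to 6.66% of their 50-base stretches with other genes, each most with another Scd gene, and Scd1 averaged 508406 counts a liver where Scd2 averaged 254. Scd3 and Scd4, which share 6.66% and 6.3% of their stretches, most with Scd1, averaged 0.125 and 1.69 counts a liver. How many of the few Scd2 reads in liver came from Scd1 was not tested.

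The front-end desaturases Fads1 and Fads2, which make polyunsaturated fatty acids, lie side by side on chromosome 19 and moved in the same direction. Fads1 (delta-5) was at 652, 912, 873 and 728 CPM in combined livers, at 736, 669.6, 758 and 693 CPM in TMEM106B-/- livers, at 676, 637, 404 and 542 CPM in TDP-43Q331K livers and at 546, 412, 415 and 397 CPM in WT livers. Fads2 (delta-6) was at 749, 1137, 1098 and 1114 CPM in combined livers, at 939, 757, 926 and 861 CPM in TMEM106B-/- livers, at 933, 917, 437 and 668 CPM in TDP-43Q331K livers and at 556, 350.3, 404 and 437 CPM in WT livers. For both genes all combined and TMEM106B-/- livers lay above all WT livers, while the TDP-43Q331K livers overlapped with WT. Fads1 was 0.84 ± 0.16 higher in the combined genotype (adjusted p = 0.0039) and 0.69 ± 0.16 higher in TMEM106B-/- (adjusted p = 0.045). Fads2 was 1.23 ± 0.21 higher in the combined genotype (adjusted p = 0.0020) and 0.99 ± 0.21 higher in TMEM106B-/- (adjusted p = 0.031). Fads3, the third gene of that cluster, had group means of 2.25 to 3.17 CPM and was not called.

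Among the elongation genes Elovl5, which lengthens polyunsaturated chains, had the largest change of any member. It was at 668, 1234, 871 and 705 CPM in combined livers, at 461, 424, 483 and 483 CPM in TMEM106B-/- livers, at 426, 347, 221 and 188 CPM in TDP-43Q331K livers and at 185, 201, 128 and 133 CPM in WT livers. The combined livers lay above all others, the TMEM106B-/- livers lay above all WT livers, and the TDP-43Q331K livers overlapped with WT and, at their highest, with TMEM106B-/-. The change against WT was 2.42 ± 0.25 in the combined genotype (adjusted p = 4.09e-05) and 1.51 ± 0.25 in TMEM106B-/- (adjusted p = 0.0065). Elovl6, which takes palmitate to stearate, averaged 299 ± 115 CPM in combined livers and 96.4 ± 29.2 CPM in WT livers (1.63 ± 0.30, adjusted p = 0.0037). Hsd17b12, the ketoacyl-CoA reductase of the elongation cycle, averaged 160.4 ± 17.1 CPM in combined livers and 98.8 ± 17.3 CPM in WT livers (0.70 ± 0.19, adjusted p = 0.032), and Tecr, the enoyl-CoA reductase, averaged 274 ± 21.1 CPM in combined livers and 185 ± 17.9 CPM in WT livers (0.57 ± 0.11, adjusted p = 0.0041). The elongases Elovl1, Elovl2 and Elovl7 were not called, with group means of 37.1 to 47.3 CPM, 340.0 to 446 CPM and 0.181 to 0.246 CPM.

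NADPH, the reductant of the synthase, comes from malic enzyme and the oxidative pentose phosphate pathway. Me1, cytosolic malic enzyme, was at 321, 730.5, 685 and 435 CPM in combined livers, at 242, 371, 307 and 258 CPM in TMEM106B-/- livers, at 287, 248, 174 and 195 CPM in TDP-43Q331K livers and at 148, 105, 132 and 92.2 CPM in WT livers. Pgd, phosphogluconate dehydrogenase, was at 81.3, 129, 114 and 78.0 CPM in combined livers, at 59.7, 62.1, 80.6 and 70.7 CPM in TMEM106B-/- livers, at 56.4, 56.1, 50.8 and 53.1 CPM in TDP-43Q331K livers and at 41.1, 28.9, 41.0 and 39.3 CPM in WT livers. For both genes every non-WT liver exceeded every WT liver, and the combined livers exceeded every TDP-43Q331K liver. Me1 was 2.19 ± 0.25 higher in the combined genotype than in WT (adjusted p = 9.08e-05) and 1.31 ± 0.24 higher in TMEM106B-/- (adjusted p = 0.019). Pgd was 1.42 ± 0.16 higher in the combined genotype (adjusted p = 6.99e-05) and 0.86 ± 0.16 higher in TMEM106B-/- (adjusted p = 0.016).

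The non-oxidative enzymes transketolase Tkt and transaldolase Taldo1 had smaller changes. Tkt averaged 195 ± 36.1 CPM in combined livers and 121 ± 25.4 CPM in WT livers (0.69 ± 0.16, adjusted p = 0.016), and Taldo1 averaged 173 ± 7.66 CPM in combined livers and 125 ± 8.52 CPM in WT livers (0.46 ± 0.09, adjusted p = 0.0034). G6pdx, glucose-6-phosphate dehydrogenase, averaged 6.496 ± 3.66 CPM in combined livers and 3.29 ± 0.434 CPM in WT livers (0.99 ± 0.26, adjusted p = 0.032), with 11.9 CPM in the combined replicate 2. Without that liver the G6pdx change was 0.53 and it was not called. The G6pdx call was also lost without WT replicate 2, 3 or 4 and without combined replicate 3, and it held in 7 of 14 alternatives. G6pdx also overlaps Ikbkg on the other strand by 418 bases, and Ikbkg averaged 4134 counts a liver where G6pdx averaged 324. Because the strand setting of the counting is not known, reads of that overlap cannot be assigned. Among other members, the Slc25a1 call was lost without WT replicate 2, 3 or 4 and without combined replicate 2 or 3, the Hsd17b12 call without those 5 livers or combined replicate 4, and the Tkt call without combined replicate 2 or 3.

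Pklr, the liver pyruvate kinase and a ChREBP target, averaged 607 ± 132 CPM in combined livers and 364 ± 208 CPM in WT livers and was not called (0.74 ± 0.36, adjusted p = 0.24). Of the regulators, Srebf1 was at 203, 276, 237 and 288 CPM in combined livers, at 592, 201, 511 and 262 CPM in TMEM106B-/- livers, at 261, 468, 483 and 539 CPM in TDP-43Q331K livers and at 422, 139, 428 and 439 CPM in WT livers. The combined livers sat close together within the lower part of the range of the other groups, whose livers spread widely, and the change against WT was -0.51 ± 0.37 (adjusted p = 0.46). Mlxipl was at 536, 610.2, 577 and 474 CPM in combined livers, at 901, 561, 569.9 and 434 CPM in TMEM106B-/- livers, at 540.4, 469, 881 and 573 CPM in TDP-43Q331K livers and at 580.5, 687, 674 and 697 CPM in WT livers, with overlap between all groups (-0.26 ± 0.20 for the combined genotype, adjusted p = 0.49). Nr1h3 was at 132, 117, 139.7 and 128 CPM in combined livers, at 112, 108, 128 and 128 CPM in TMEM106B-/- livers, at 126, 134, 117 and 142 CPM in TDP-43Q331K livers and at 138, 110.3, 114 and 128 CPM in WT livers, again with overlap (0.08 ± 0.10, adjusted p = 0.72). Transcript levels do not report the processing or activity of these factors.

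The other 2 regulators are small proteins that act on acetyl-CoA carboxylase. Thrsp (Spot 14) averaged 1134 ± 223 CPM in combined livers and 543 ± 411 CPM in WT livers (1.06 ± 0.65, adjusted p = 0.37). Mid1ip1, its paralog, went the other way, at 70.6 ± 14.8 CPM in combined livers and 120.1 ± 23.4 CPM in WT livers (-0.77 ± 0.24, adjusted p = 0.07, not called by edgeR).

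**Figure D2:**
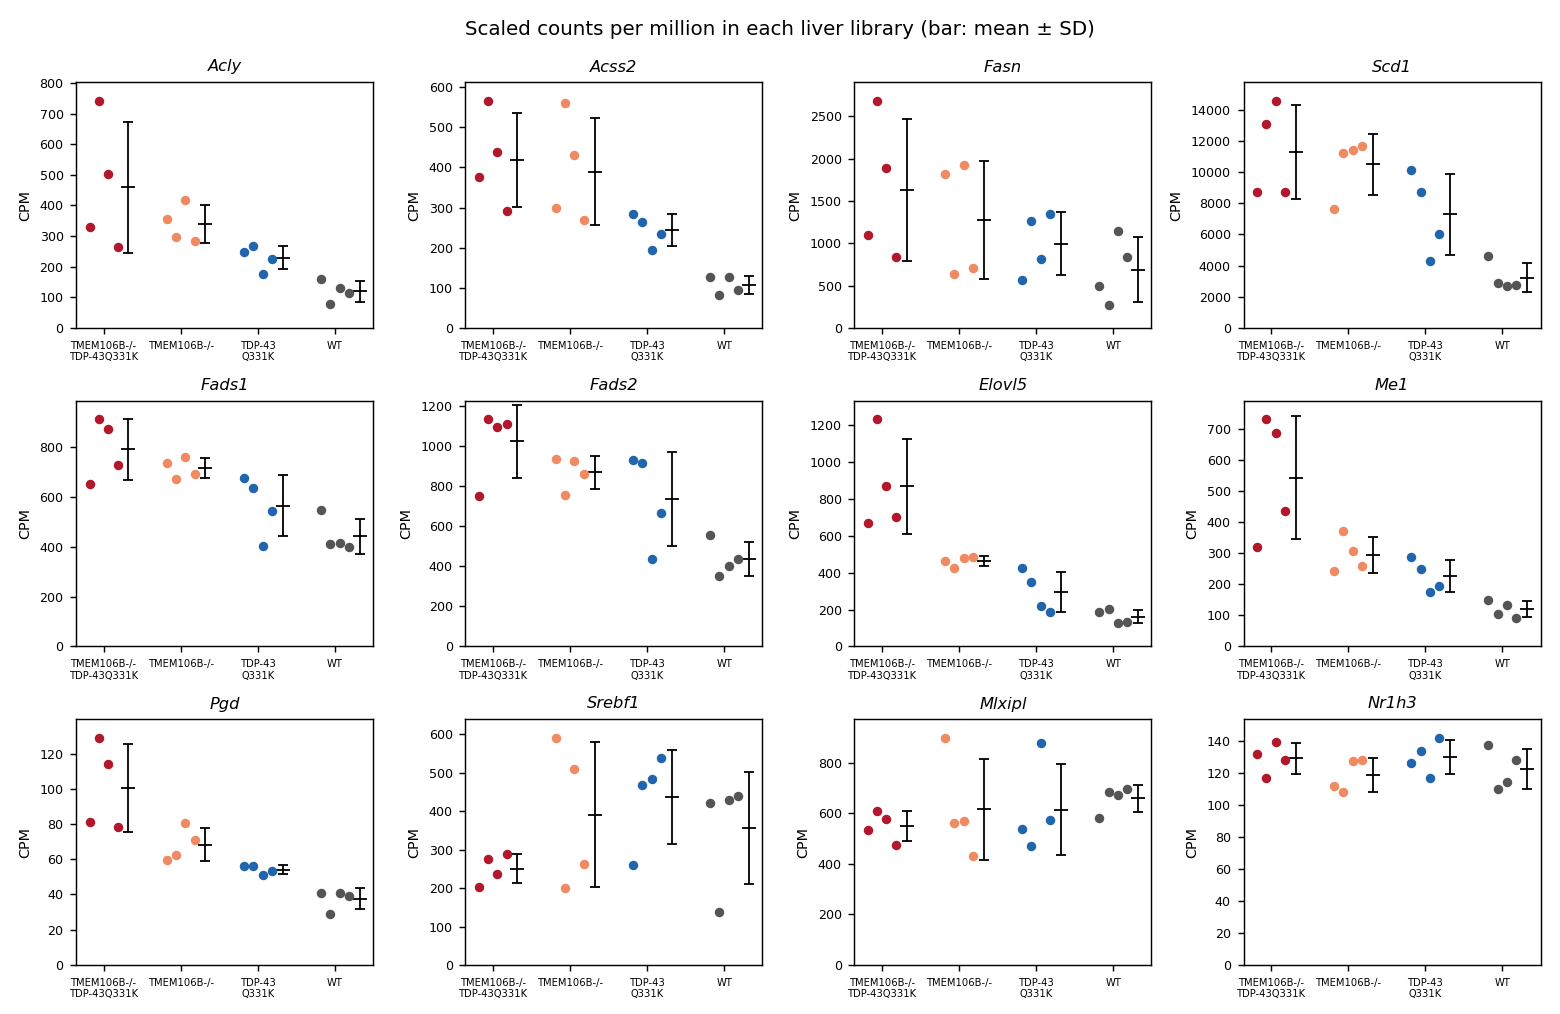
CPM (y axis, linear from 0) of 12 members in each liver library, with the mean ± SD as a bar beside each genotype. For Acly, Acss2, Me1 and Pgd every WT point lies below every other point, for Elovl5 the 4 combined points (668 to 1234 CPM) lie above all others, and Fasn, Srebf1, Mlxipl and Nr1h3 overlap between genotypes.

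In the livers labelled TMEM106B-/- the called members again came from carbon supply, desaturation, elongation and NADPH. Of 30 tested members 8 rose (Acly, Acss2, Scd1, Fads1, Fads2, Elovl5, Me1 and Pgd) and none fell, where 0.688% of all genes rose; the members' median was 0.57 and that of all genes 0.0027. Of the members, 26 had a positive log2 fold change, 16 had an unadjusted p under 0.05, all higher, and DESeq2 called 13. An unadjusted p under 0.05 was found for 2517 of all 16710 genes tested, in either direction. Acaca (0.80, adjusted p = 0.053) and Acacb (1.72, adjusted p = 0.053) were not called. Without WT replicate 2 the count was 4, without TMEM106B-/- replicate 2 it was 5 and without TMEM106B-/- replicate 3 it was 3. Acss2, Scd1 and Elovl5 stayed called in all 8 fits that left out 1 library, Pgd in 6, Acly and Me1 in 5 each, and Fads1 and Fads2 in 2 each.

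TDP-43Q331K alone gave 1 called member of 30, Acss2, where 0.156% of all genes rose. The members' median was 0.35 against -0.0087 for all genes, and 25 of 30 had a positive log2 fold change. An unadjusted p under 0.05 was found for 14 members, all higher, and for 2547 of all 16710 genes in either direction. DESeq2 called 7 members. The Acss2 call was lost whichever single library of these groups was left out, with log2 fold changes from 1.07 to 1.28 over all alternatives. Tested members of the acetyl-CoA and malonyl-CoA class had a median of 0.74 and the desaturases one of 0.35.

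By library, the median over the 30 tested members of the log2 difference from the WT mean was 0.47, 0.99, 0.85 and 0.56 in combined livers, 0.71, 0.45, 0.67 and 0.57 in TMEM106B-/- livers, 0.36, 0.52, 0.31 and 0.44 in TDP-43Q331K livers and 0.15, -0.17, 0.05 and -0.01 in WT livers. All 12 non-WT livers lay above the 4 WT livers, and the combined and TMEM106B-/- livers overlapped. The TDP-43Q331K livers were between WT and most of the others. Each WT liver is itself part of the WT mean, which draws the WT values toward that mean, and all livers share this reference. No such median by library was taken over all genes.

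Against TDP-43Q331K, the combined genotype asks what the TMEM106B-/- label adds on the mutant background, with Tmem106b RNA itself not lower in these libraries. Elovl5 (1.56 ± 0.25, adjusted p = 0.0020), Me1 (1.26 ± 0.24, adjusted p = 0.0090) and Pgd (0.89 ± 0.16, adjusted p = 0.0045) rose, 3 of 30 tested members where 2.17% of all genes rose. The median of the members was 0.37 and that of all genes -0.0051. In all 3 genes, and in 8 of the 30 tested members in all, the combined livers lay wholly above the TDP-43Q331K livers, where 7.59% of all genes did so. Srebf1 had a change of -0.80 ± 0.37 and was not called in the fit of all 4 genotypes. It was called lower when only the 2 genotypes compared were fitted, together with 6 members called higher, and 7 members were called higher without the livers of high acute phase transcripts.

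Against TMEM106B-/-, the combined genotype asks what TDP-43Q331K adds, and edgeR called 0 of 30 members, where 1.04% of all genes were called. Elovl5 (0.91 ± 0.24, adjusted p = 0.096), Me1 (0.88 ± 0.24, adjusted p = 0.11) and Pgd (0.56, adjusted p = 0.12) had positive estimates that were not called. At an unadjusted p under 0.05 there were 5 members higher and 1 lower. That threshold was reached by 2256 of all 16710 genes tested, in either direction. DESeq2 called 4 members higher, which were Elovl5, Me1, Pgd and Taldo1. Taldo1 and Elovl5, 2 of the 30, lay wholly above TMEM106B-/- in the combined livers, where 4.51% of all genes did so.

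The interaction, that is whether the difference between libraries with and without the TMEM106B-/- label changed with TDP-43Q331K, called 0 of 30 members with edgeR, where 0.688% of all genes were called, and 22 members had a negative and 8 a positive estimate. At an unadjusted p under 0.05 there were 2 members, both negative. That threshold was reached by 2729 of all 16710 genes tested, in either direction. DESeq2 called Acss2 alone among the members, also negative. For Acss2 and Scd1 the edgeR estimates were -1.08 ± 0.33 (adjusted p = 0.14) and -1.08 ± 0.37 (adjusted p = 0.17). For Elovl5, Me1 and Pgd they were 0.04 ± 0.34, -0.04 ± 0.34 and 0.03 ± 0.22, so the summed effects of the 2 single genotypes were close to the combined effect on the log scale, within an SE of up to 0.34.

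Some marker genes were also called in liver and are given here as measurements. In the combined genotype against WT edgeR called 0 of 6 Kupffer cell, 0 of 6 liver endothelium, 0 of 5 bile duct and 0 of 5 red blood cell markers. Of 8 hepatocyte markers 2 were lower in the combined genotype than in WT, Apoa1 (-0.39) and Serpina1c (-0.83), and the same 2 were lower than in TDP-43Q331K, the comparison in which Elovl5, Me1 and Pgd rose. Of 6 stellate cell markers 2 were higher in the combined genotype than in WT, the collagens Col1a1 (1.60) and Col3a1 (1.22), and Col3a1 and the endothelial marker Pecam1 were higher than in TDP-43Q331K. The stellate list summed to 157 to 189 CPM in combined livers, 146 to 155 in TMEM106B-/- livers, 118 to 144 in TDP-43Q331K livers and 112 to 169.6 in WT livers. Of 6 liver endothelium markers 1, Clec4g, was lower in TMEM106B-/- than in WT (-0.64). Of 8 adipocyte markers 4 could be tested and 2 were higher in the combined genotype than in WT, Cidea, a lipid droplet protein that fatty liver also expresses (6.35, at most 27.9 CPM), and Retn (at most 0.250 CPM). The defining fat cell genes Adipoq, Plin1 and Lep reached at most 0.515, 0.452 and 0.0936 CPM in any liver. The whole list summed to 44.8 to 60.7 CPM in combined livers, 14.4 to 47.9 in TMEM106B-/- livers, 41.6 to 72.3 in TDP-43Q331K livers and 22.3 to 32.5 in WT livers. The 9 acute phase genes summed to 7433 to 20746 CPM in combined livers, 6213 to 21269 in TMEM106B-/- livers, 7246 to 8961 in TDP-43Q331K livers and 9503 to 23616 in WT livers. EdgeR called 0 of the 9 in the combined genotype against WT, with 1 higher at an unadjusted p under 0.05 and 1 by DESeq2. It also called 0 of 9 in TMEM106B-/- (0 at an unadjusted p under 0.05, 0 by DESeq2) and in TDP-43Q331K (4 lower at an unadjusted p under 0.05, 0 by DESeq2). Without the 3 livers of high acute phase transcripts 16 members rose in the combined genotype and 6 in TMEM106B-/-. The WT livers kept in that fit still had higher sums (9503 to 13874 CPM) than all other livers kept (6213 to 8961 CPM). That fit therefore did not remove the difference in these transcripts. The part of Cidea, Retn, the acute phase genes and the hepatocyte, stellate and endothelial markers in these results was not tested.

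The other genes of the pathway were taken from lists made by function. Among all liver genes 4.19% rose in the combined genotype against WT and 2.85% fell. Of 25 genes of glycolysis and sugar entry 6 rose in the combined genotype against WT, among them enolase Eno1 (0.70 ± 0.13), the glyceraldehyde phosphate dehydrogenase Gapdh (0.54 ± 0.11) and the isomerase Gpi1 (0.61 ± 0.14), with a median over the list of 0.19. Of 10 genes that lead pyruvate to mitochondrial citrate 4 rose, the pyruvate carrier subunit Mpc1 (0.68 ± 0.11), citrate synthase Cs (0.65 ± 0.12), the pyruvate dehydrogenase component Dlat (0.85 ± 0.19) and pyruvate carboxylase Pcx (0.45 ± 0.11), with a list median of 0.38. Of 10 tested genes for other pentose phosphate and NADPH enzymes 2 rose, Rpia (0.94 ± 0.25) and cytosolic isocitrate dehydrogenase Idh1 (0.50 ± 0.14). EdgeR called 0 genes of these 3 lists lower in liver in this comparison, with 1 lower at an unadjusted p under 0.05 and 0 by DESeq2.

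Acsl5, which activates fatty acids to acyl-CoA, was the called gene of 8 acyl-CoA synthetases, at 434 to 621 CPM in combined livers, 522 on average, 422 to 525 CPM in TMEM106B-/- livers, 322 to 462 CPM in TDP-43Q331K livers and 251 to 271 CPM in WT livers. It rose by 1.01 ± 0.14 in the combined genotype and by 0.80 ± 0.14 in TMEM106B-/-, where 4.19% and 0.688% of all genes rose. Acsf3, a malonyl-CoA synthetase, rose by 0.74 ± 0.11 and was the called gene of 6 for mitochondrial fatty acid synthesis. For the combined genotype against WT, edgeR called 0 of 12 genes of the SREBP and LXR control machinery, with 2 higher at an unadjusted p under 0.05 and 2 by DESeq2. It called 0 of 5 other elongation enzymes, with 1 higher at an unadjusted p under 0.05 and 1 by DESeq2. It called 0 of 7 genes of AMPK and malonyl-CoA control, with 0 at an unadjusted p under 0.05 and 0 by DESeq2. Against TDP-43Q331K, where 2.17% of all genes rose, Insig2 and Rpia were called higher. Insig2, which holds SREBP in the endoplasmic reticulum, rose by 1.58 ± 0.37, with 164 ± 67.3 CPM in combined livers and 55.0 ± 18.8 CPM in TDP-43Q331K livers. Rpia rose by 0.92.

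Liver and cortex use different members of the same families, as the WT levels per kilobase of exon show. In WT liver the highest members were Scd1 at 657 ± 189 CPM per kb, Thrsp at 248 ± 188, Fads2 at 133 ± 26.5, Mlxipl at 119 ± 9.68 and Pklr at 112 ± 64.2 (SD, n = 4), and from Thrsp downward neighbours in this order lay within their spread of each other. In WT cortex Scd2 led at 203 ± 5.60 CPM per kb, followed by Tecr at 118 ± 2.10, Scd1 at 44.4 ± 2.26, Acly at 35.5 ± 1.41 and Fads1 at 33.1 ± 1.01 (SD, n = 5), and here Acly and Fads1 lay within their summed SDs. Scd2 was at 0.613 CPM per kb in WT liver, and the very long chain elongase Elovl4 was at 18.3 in WT cortex with 5 counts over all livers. Thrsp was at 4.31, Mlxipl at 0.418 and Pklr at 0.0206 CPM per kb in WT cortex. Each tissue was scaled alone, so these are positions within a tissue and were not tested between tissues.

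**Figure D3:**
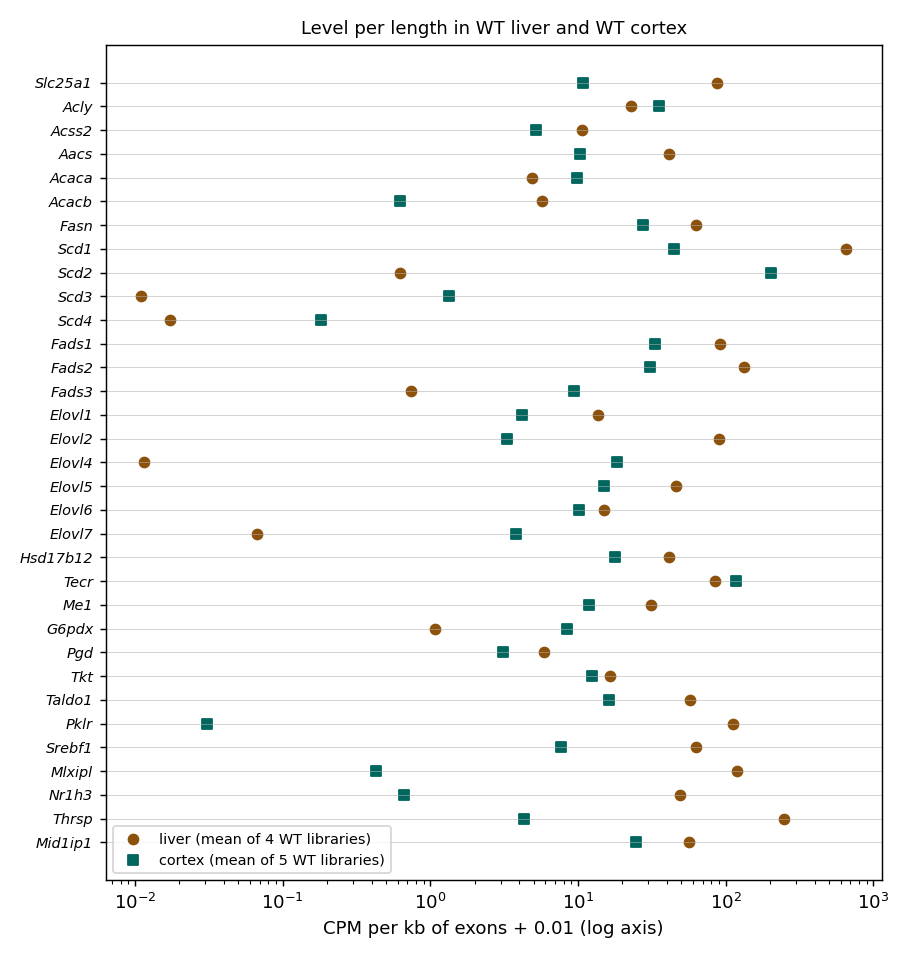
Mean WT level of the 33 members in liver (circles, 4 libraries) and cortex (squares, 5 libraries) in CPM per kb of exon plus 0.01, on a log axis. Scd1, Thrsp, Mlxipl, Pklr and Elovl2 lie far to the right in liver, and Scd2, Elovl4, Elovl7 and Fads3 in cortex.

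In the cortex the changes were smaller, fewer and mostly downward. Scd1, Scd2, Elovl7 and Taldo1 were called lower in both TMEM106B-/- and combined cortices against WT. No acetyl-CoA or malonyl-CoA gene and no Fads gene was called there. In TMEM106B-/- cortex 6 of 32 tested members fell and none rose, where 2.39% of all genes fell. At an unadjusted p under 0.05 there were 2 higher and 8 lower, and by DESeq2 1 higher and 6 lower. The unadjusted threshold was reached by 4027 of all 21248 genes tested, in either direction. Those called by edgeR were Scd1, Scd2, Scd3, Elovl7, Hsd17b12 and Taldo1. In the combined genotype 4 fell (Scd1, Scd2, Elovl7 and Taldo1), where 2.36% of all genes fell, and 1 rose (Elovl2), where 2.53% rose. The members' medians were -0.053 in the combined genotype and -0.065 in TMEM106B-/-, against 0.0089 and 0.0064 for all genes. These 2 comparisons share the WT cortices. Members wholly below WT numbered 5 of 32 in the combined genotype, where 2.96% of all genes lay wholly below, and 6 in TMEM106B-/-, where 3.39% did. Wholly above WT lay 1 of 32, G6pdx, in the combined genotype, where 2.96% of all genes did so, and 0 in TMEM106B-/-, where 2.5% did.

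**Figure D4:**
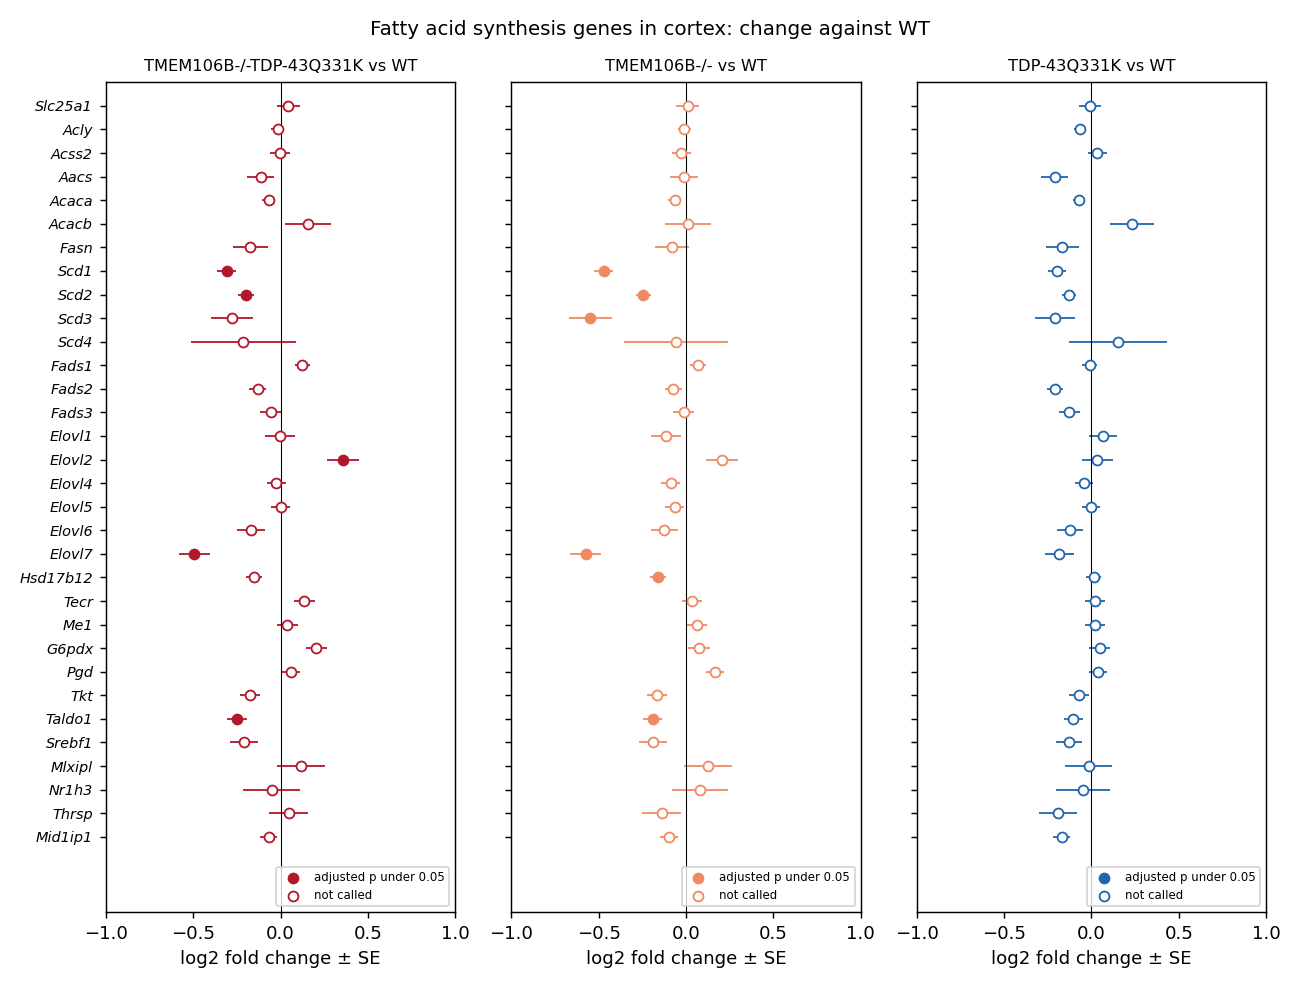
Log2 fold changes (x axis, ± SE, a narrower scale than for liver) of the 32 tested members in cortex for the combined genotype, TMEM106B-/- and TDP-43Q331K against WT, with filled points for genes called by edgeR. The filled points are 5 in the combined genotype, 6 in TMEM106B-/- and 0 in TDP-43Q331K, and only Elovl2 (0.36) is filled on the right.

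Scd1 was at 172, 159, 169, 196 and 182 CPM in combined cortices, at 141, 171, 150.2, 170.0 and 152 CPM in TMEM106B-/- cortices, at a lowest of 185, a median of 189 and a highest of 199 CPM in TDP-43Q331K cortices, and at 226, 227, 207, 222 and 204 CPM in WT cortices. All libraries of the other 3 genotypes lay below all WT cortices. The change against WT was -0.31 ± 0.05 in the combined genotype (adjusted p = 0.0044) and -0.47 ± 0.05 in TMEM106B-/- (adjusted p = 5.14e-05). Scd2, the main desaturase of brain, was at 959, 919, 918, 985 and 1046 CPM in combined cortices, at 932, 992, 936, 923 and 894 CPM in TMEM106B-/- cortices, at 957, 1022 and 1059 CPM (lowest, median, highest) in TDP-43Q331K cortices and at 1143, 1129.9, 1079.8, 1109.6 and 1073 CPM in WT cortices. It too was below every WT cortex in all 3 genotypes, by -0.20 ± 0.04 in the combined genotype (adjusted p = 0.013) and -0.24 ± 0.04 in TMEM106B-/- (adjusted p = 0.0017).

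Scd3 was at 5.09, 3.12, 3.51, 3.54 and 4.28 CPM in combined cortices, at 3.22, 3.36, 3.26, 3.26 and 3.14 CPM in TMEM106B-/- cortices, at 3.36, 4.06 and 4.88 CPM (lowest, median, highest) in TDP-43Q331K cortices and at 5.23, 4.75, 4.25, 4.28 and 5.21 CPM in WT cortices. The TMEM106B-/- cortices lay below all WT cortices, at -0.55 ± 0.12 (adjusted p = 0.0094), and the combined ones overlapped with WT, at -0.28 ± 0.12 (adjusted p = 0.18). Scd4 was at 0.752, 0.420, 0.603, 0.519 and 0.469 CPM in combined cortices, at 0.836, 0.428, 0.770, 0.518 and 0.541 CPM in TMEM106B-/- cortices, at 0.306, 0.664 and 1.33 CPM (lowest, median, highest) in TDP-43Q331K cortices and at 0.518, 0.561, 0.562, 0.935 and 0.644 CPM in WT cortices, with overlap between all groups. Scd3 averaged 142 counts a cortex library and shares 6.66% of its 50-base stretches with other genes, most with Scd1 (6551 counts). In liver Scd3 averaged 0.125 counts a library where Scd1 averaged 508406. How many Scd3 reads in cortex came from Scd1 was not tested.

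Elovl7, an elongase of very long saturated chains, was at 13.0, 11.8, 8.69, 10.9 and 10.2 CPM in combined cortices, at 10.2, 10.2, 10.9, 10.3 and 9.95 CPM in TMEM106B-/- cortices, at 11.6, 13.9 and 14.5 CPM (lowest, median, highest) in TDP-43Q331K cortices and at 13.6, 17.0, 14.3, 16.6 and 15.1 CPM in WT cortices. All combined and TMEM106B-/- cortices were below all WT cortices, by -0.49 ± 0.09 (adjusted p = 0.0044) and -0.57 ± 0.09 (adjusted p = 0.00044), and the decrease in TMEM106B-/- was the largest among the called members. Elovl2, which extends polyunsaturated chains toward DHA, was at 18.1, 16.8, 19.1, 16.5 and 13.3 CPM in combined cortices, at 15.6, 16.7, 14.5, 12.01 and 17.0 CPM in TMEM106B-/- cortices, at 11.7, 13.6 and 14.6 CPM (lowest, median, highest) in TDP-43Q331K cortices and at 13.3, 13.0, 13.4, 11.9 and 14.0 CPM in WT cortices. Of the combined cortices 4 lay above all WT cortices and replicate 5 lay within them (0.36 ± 0.09, adjusted p = 0.029), and the call was lost in the fits without WT replicate 2, 3 or 4 and in those without combined replicate 1, 3 or 4.

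Hsd17b12 was at 41.7, 37.4, 39.0, 36.5 and 38.6 CPM in combined cortices, at 39.2, 39.2, 35.9, 38.9 and 39.2 CPM in TMEM106B-/- cortices, at 41.0, 43.3 and 46.7 CPM (lowest, median, highest) in TDP-43Q331K cortices and at 42.5, 44.4, 43.5, 40.5 and 43.9 CPM in WT cortices. The TMEM106B-/- cortices lay below all WT cortices (-0.16 ± 0.05, adjusted p = 0.041), and the combined ones overlapped with them at replicate 1 (-0.15, adjusted p = 0.051). Taldo1 was at 27.9, 29.3, 28.4, 30.05 and 32.9 CPM in combined cortices, at 30.01, 30.3, 30.6, 33.7 and 30.1 CPM in TMEM106B-/- cortices, at 30.7, 32.5 and 36.9 CPM (lowest, median, highest) in TDP-43Q331K cortices and at 37.1, 34.0, 34.2, 37.1 and 34.3 CPM in WT cortices. Combined and TMEM106B-/- cortices were below all WT cortices, by -0.25 ± 0.06 (adjusted p = 0.014) and -0.19 ± 0.06 (adjusted p = 0.044). The Hsd17b12 and Taldo1 calls in TMEM106B-/- each held in 1 of 10 fits that left out 1 library, and the other 4 calls in that comparison held in all 10.

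**Figure D5:**
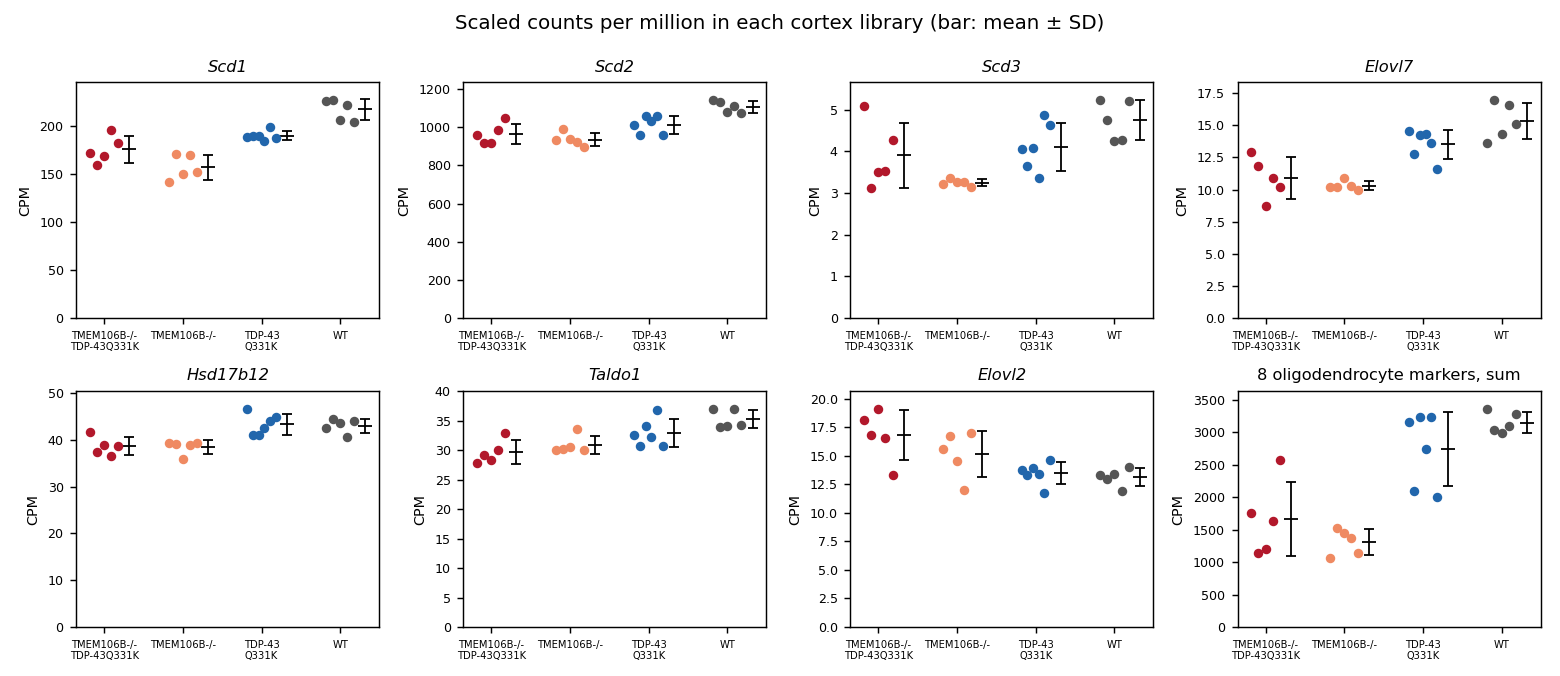
CPM (y axis, linear from 0) of 7 members in each cortex library, and the summed CPM of 8 oligodendrocyte markers in the last panel, with mean ± SD as a bar beside each genotype. Scd1, Scd2 and Elovl7 lie below WT in all combined and TMEM106B-/- cortices, and the marker sum lies at 1147 to 2573 in combined, 1057 to 1518 in TMEM106B-/- and 2982 to 3366 CPM in WT cortices.

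Markers of myelinating oligodendrocytes, which make much of the brain's fatty acid for myelin, moved with these genes. All 8 markers were lower than WT in the combined genotype (from -0.74 to -1.03, median -0.94) and in TMEM106B-/- (from -1.01 to -1.51, median -1.26), 0 were called in TDP-43Q331K (edgeR and DESeq2, and 0 at an unadjusted p under 0.05) and 1 was called in the combined genotype against TDP-43Q331K. Their sum was 1147 to 2573 CPM in combined cortices, 1057 to 1518 in TMEM106B-/- cortices, 1998 to 3236 in TDP-43Q331K cortices and 2982 to 3366 in WT cortices, and no marker was at 0. Other marker sums also differed. Meningeal markers summed to 27.0 to 59.4 CPM in combined cortices, 19.2 to 71.7 in TMEM106B-/- cortices, 15.9 to 39.4 in TDP-43Q331K cortices and 8.45 to 28.7 in WT cortices, with 1 of 5 called higher in the combined genotype and 3 in TMEM106B-/-. Deep layer and striatal markers summed to 119 to 177 CPM in combined cortices, 126 to 173 in TMEM106B-/- cortices, 167 to 288 in TDP-43Q331K cortices and 198 to 214 in WT cortices, with 0 of 6 called by edgeR in the combined genotype against WT (1 lower at an unadjusted p under 0.05, 1 by DESeq2), 0 in TMEM106B-/- (4 lower at an unadjusted p under 0.05, 1 by DESeq2) and 0 in TDP-43Q331K (0 at an unadjusted p under 0.05, 0 by DESeq2). Red blood cell markers summed to 7.73 to 21.9 CPM in combined cortices, 6.76 to 21.6 in TMEM106B-/- cortices, 12.6 to 35.5 in TDP-43Q331K cortices and 21.8 to 36.2 in WT cortices, with 1 of 5, the globin Hba-a1, called lower in the combined genotype and in TMEM106B-/-. Of 5 microglia markers 1, Tmem119, was higher in both. Of 5 tested genes of the stellate list, which fibroblasts also express, 3 were higher in TMEM106B-/- (Col1a1, Col3a1 and Reln). Of 4 tested genes of the liver endothelium list 2 were higher in the combined genotype (Lyve1 and Cdh5) and 1 in TMEM106B-/- (Cdh5). Of 6 astrocyte markers 2 were higher in the combined genotype and 1 in TMEM106B-/-. The part of these marker changes in the fall of Scd1, Scd2, Scd3, Elovl7, Hsd17b12 and Taldo1, and in the rise of Elovl2, was not tested. Another fit left out 4 cortices set apart (WT 1, TDP-43Q331K 3, TMEM106B-/- 5 and combined 2). It called 5 members in the combined genotype, 4 of them as before, with Elovl2 lost and Fads1 gained. In TMEM106B-/- 4 of the 6 calls remained, and Hsd17b12 and Taldo1 were lost. This fit kept combined replicate 5, the highest oligodendrocyte sum of its genotype (2573 CPM), and TMEM106B-/- replicate 1, the lowest of its own (1057 CPM). It therefore does not show the result without the extremes of that sum.

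The rest of the pathway changed little in cortex. Srebf1 was at 38.6, 40.3, 32.2, 33.3 and 42.4 CPM in combined cortices, at 39.1, 40.0, 36.3, 34.8 and 39.0 CPM in TMEM106B-/- cortices, at 34.6, 38.9 and 44.8 CPM (lowest, median, highest) in TDP-43Q331K cortices and at 45.9, 44.4, 43.04, 44.6 and 37.7 CPM in WT cortices. Apart from WT replicate 5, the WT cortices lay above all combined and TMEM106B-/- cortices, and the change was -0.21 ± 0.08 in the combined genotype (adjusted p = 0.12) and -0.19 in TMEM106B-/-, not called. Mlxipl was at 2.603, 2.13, 2.90, 2.21 and 2.71 CPM in combined cortices, at 2.43, 2.81, 2.14, 2.54 and 2.70 CPM in TMEM106B-/- cortices, at 1.99, 2.17 and 2.71 CPM (lowest, median, highest) in TDP-43Q331K cortices and at 1.87, 2.27, 2.70, 2.86 and 1.87 CPM in WT cortices. Nr1h3 was at 1.24, 1.65, 1.78, 1.27 and 1.90 CPM in combined cortices, at 1.90, 2.08, 1.61, 1.53 and 1.54 CPM in TMEM106B-/- cortices, at 1.21, 1.65 and 1.88 CPM (lowest, median, highest) in TDP-43Q331K cortices and at 1.87, 1.44, 1.55, 1.60 and 1.71 CPM in WT cortices. Both overlapped between all groups.

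The 5 acetyl-CoA and malonyl-CoA genes that rose in liver were not called in cortex, and neither were Elovl5 and Me1. Group means over the 4 genotypes ranged from 179 to 187 CPM for Acly, from 52.1 to 54.3 CPM for Acss2, from 23.1 to 24.0 CPM for Slc25a1, from 159 to 167 CPM for Acaca, from 5.87 to 6.92 CPM for Acacb, from 50.4 to 52.8 CPM for Elovl5 and from 45.7 to 47.6 CPM for Me1. Fasn averaged 267 ± 22.0 CPM in combined, 285 ± 25.6 in TMEM106B-/-, 268 ± 19.5 in TDP-43Q331K and 301 ± 54.0 in WT cortices.

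TDP-43Q331K alone gave 0 called members of 32 in cortex with edgeR, where 0% of all genes were called, and 0 by DESeq2. At an unadjusted p under 0.05 there were 7 members lower. That threshold was reached by 1036 of all 21248 genes tested, in either direction. The median over members was -0.057 against 0.0027 for all genes. Scd1, Scd2, Fads2 and Mid1ip1 in TDP-43Q331K cortices lay wholly below WT, 4 of 32 members where 0.499% of all genes did so, with Fads2 at -0.21 ± 0.05 (adjusted p = 0.34). Fads2 was called lower in the fit without the cortices set apart.

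The combined genotype against TDP-43Q331K gave 0 of 32 members with edgeR, where 1.4% of all genes were called, and DESeq2 called 1 higher and 2 lower. At an unadjusted p under 0.05 there were 4 members higher and 4 lower. That threshold was reached by 3845 of all 21248 genes tested, in either direction. The edgeR count rose to 4 without the combined replicate 5, the combined cortex with the highest oligodendrocyte marker sum (2573 CPM). The count of the combined genotype against WT was then 8 instead of 5. The combined genotype against TMEM106B-/- gave 0 of 32 members, where 0% of all genes were called (3 members higher and 1 lower at an unadjusted p under 0.05, 0 by DESeq2). The interaction also gave 0 of 32, where 0% of all genes were called (7 members higher at an unadjusted p under 0.05, 0 by DESeq2). Among all 21248 genes the unadjusted threshold was reached by 1053 in the comparison with TMEM106B-/- and by 972 in the interaction.

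Of the other pathway lists in cortex, the combined genotype against WT had 1 of 23 tested glycolysis genes lower (phosphoglycerate kinase Pgk1, -0.19 ± 0.05), 1 of 10 genes from pyruvate to citrate lower (Dld, -0.23 ± 0.06), 1 of 10 other NADPH genes lower (Idh1, -0.25 ± 0.06) and 1 of 6 mitochondrial fatty acid synthesis genes lower (the malonyltransferase Mcat, -0.40 ± 0.09). Among all genes 2.36% fell in that comparison, and these single genes are not read as changes of their lists. Idh1 fell in cortex and rose in liver in the same comparison, and that difference between tissues was not tested. In TMEM106B-/- cortex Hacd4, a dehydratase of the elongation cycle, was the called gene of 4 tested, higher by 1.15 ± 0.30. In that comparison 590 of all 21248 genes rose.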

How the data were processed

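RNA was sequenced from 16 liver and 21 cortex libraries. The deposited values are raw counts per gene made by the authors, whole numbers with no normalization. Per the labels' protocols, libraries were made with a directional kit from total RNA. Trim Galore, cutadapt, FastQC and the builds GRCm38 and mm10 are named by the submitters' processing notes. For the aligner, counter and strand setting, a name was not given in the sources used here. A further 1 cortex column that matched no label was left out. All 55536 genes matched GENCODE M21.

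Liver and cortex were fitted separately, each with all 4 genotypes (R 4.3.3, edgeR 4.0.16, limma 3.58.1), with filterByExpr (minimum count 10, minimum total 15), TMM scaling and the robust quasi-likelihood test, two-sided, adjusted by Benjamini-Hochberg over all genes. The fit was tested on simulated data. The biological coefficient of variation was 0.235 (liver) and 0.103 (cortex). CPM per kb used merged exon length.

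Members and lists were chosen with earlier results of these data known. Values in every library (lowest, median and highest for the 6 TDP-43Q331K cortices) are given, in the tissue of the call, for members called in at least 2 liver comparisons or in any cortex comparison, for the Scd paralogs with enough counts and for Srebf1, Mlxipl and Nr1h3, and of each pathway list up to 4 called genes are named. Alternatives were DESeq2 1.42.0, RLE size factors, plain library sizes for levels, no filter, only the compared groups, a replicate block, each library left out, and the libraries that stand apart left out (liver WT 2, TMEM106B-/- 4 and combined 1; cortex WT 1, TDP-43Q331K 3, TMEM106B-/- 5 and combined 2).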

Additional observations from a re-analysis of the deposited data

Results flagged for a closer look

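Within single groups, 19 of 248 sets of member values held a library far from the rest, where chance gives about 1 in 20, or 12.4. In liver the low ones were Slc25a1 in TDP-43Q331K replicate 3 (168 CPM, next 244.5), Scd1 in TMEM106B-/- replicate 1 (7605, next 11230.5), Fads2 in combined replicate 1 (749, next 1098), Hsd17b12 in TDP-43Q331K replicate 3 (73.3, next 121), Pgd in WT replicate 2 (28.9, next 39.3), Tkt in TMEM106B-/- replicate 4 (127, next 160.0) and Srebf1 in WT replicate 2 (139, next 422). The high ones in liver were Scd1 (4595, next 2858) and Fads1 (546, next 415), both in WT replicate 1.

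In cortex the low ones were Slc25a1 (20.9 CPM, next 23.7) and Aacs (32.3, next 40.8), both in TMEM106B-/- replicate 5, Hsd17b12 in TMEM106B-/- replicate 3 (35.9, next 38.9) and Tkt in WT replicate 5 (85.2, next 93.3). The high ones in cortex were Aacs in combined replicate 5 (45.8, next 35.6), Scd1 in TDP-43Q331K replicate 5 (199, next 189), Fads3 in WT replicate 3 (37.7, next 34.9), Elovl4 in TMEM106B-/- replicate 5 (59.4, next 51.0), Elovl6 in WT replicate 1 (81.5, next 62.4) and Taldo1 in TMEM106B-/- replicate 4 (33.7, next 30.6).

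Some members had log2 fold changes of opposite sign in liver and cortex, with every library of the mutant genotype above the WT mean in liver and below it in cortex. The difference between the tissues was not tested for any of them. For the combined genotype against WT the log2 fold changes in liver and in cortex were 1.81 and -0.31 for Scd1, 0.46 and -0.25 for Taldo1, 0.99 and -0.07 for Acaca, 1.23 and -0.13 for Fads2, 1.63 and -0.17 for Elovl6 and 0.70 and -0.15 for Hsd17b12. For TMEM106B-/- against WT they were 1.71 and -0.47 for Scd1, 0.43 and -0.16 for Hsd17b12 and 0.16 and -0.19 for Taldo1. Of these, edgeR called both tissues only for Scd1 in each comparison and for Taldo1 in the combined genotype. The WT cortex mean of Elovl6, 65.1 CPM, was raised by replicate 1 at 81.5 CPM. The next WT cortex was at 62.4 CPM, below the highest combined cortex at 64.7 CPM.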

How the results depend on the processing

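Of 40 called member results 26 stayed called under every alternative, and 0 changed direction. In liver, the members called in the combined genotype against WT numbered 17, with 13 to 17 when 1 library was left out. In TMEM106B-/- against WT there were 8, with 13 under DESeq2 and 3 to 9 when 1 library was left out. In TDP-43Q331K against WT there was 1, with 7 under DESeq2, 0 with no filter, 0 without the libraries that stand apart and 0 to 2 when 1 library was left out. The combined genotype against TDP-43Q331K had 3, with 7 for only the compared groups, 8 under DESeq2, 7 without the libraries that stand apart and 3 to 6 when 1 library was left out. The combined genotype against TMEM106B-/- had 0, with 4 under DESeq2 and 0 to 1 when 1 library was left out, and the interaction had 0, with 1 under DESeq2. In cortex TMEM106B-/- against WT had 6 (4 to 6 with 1 library left out), and the combined genotype against WT had 5, with 8 under DESeq2 and 4 to 8 with 1 library left out. The combined genotype against TDP-43Q331K had 0, with 1 under RLE, 3 under DESeq2 and 0 to 4 with 1 library left out, and TDP-43Q331K against WT had 0, with 1 without the libraries that stand apart. The cause of these shifts was not tested. Of single members' fold changes under the alternatives, 92 lost a call and 70 gained one. A further 5984 kept their call, or stayed uncalled and shifted by less than the largest SD of log2 CPM within a genotype. Another 40 stayed uncalled but shifted by at least that SD. Of the WT levels per kb, 0 moved beyond their SD with plain library sizes.

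With the replicate block, liver counts were 15 in the combined genotype, 6 in TMEM106B-/- and 0 in TDP-43Q331K against WT and 3 against TDP-43Q331K, and cortex counts were 5 in the combined genotype and 4 in TMEM106B-/- against WT. The labels do not say that a number pairs libraries, and the main fit did not pair them. Same-number correlations of deviations ran from -0.207 to 0.278 in liver and from -0.196 to 0.158 in cortex, and 6 of 24 and 4 of 30 were the best of their library. Between TDP-43Q331K and WT livers they were all positive, at 0.230, 0.0931, 0.278 and 0.0979 for replicates 1 to 4. What these livers of the same number share was not tested. Scd3, Scd4 and Elovl4 in liver and Pklr in cortex had too few counts to compare.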
